A study of Homo sapiens with 18 samples.

Results

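7SK is a small nuclear RNA, and its annotated copies in the human genome were described here through the counts of all repeat rows named 7SK. The rows were found by the first word of the row name in both deposited tables, without use of a measured value. Earlier results of these data were known when 7SK was chosen. There were 377 such copies among 2404193 repeat copies in the 5-FU table and 310 among 1996647 in the Nutlin table. A single copy, on chromosome 6 at 52860418 to 52860749 (hg19, as the table gives it), is called the chr6 copy. The remaining 376 and 309 are called the other copies.

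Total RNA of IMR90 cells was sequenced with a stranded kit. IMR90 is an established fibroblast line from human lung, of wildtype genotype per the labels. Nutlin, which keeps MDM2 from binding p53, was given at 5 µM for 6 h, and 5-fluorouracil (5-FU), an antimetabolite that disturbs RNA and DNA synthesis, at 375 µM for 6, 12 or 24 h. DMSO controls were made for every drug and time, and untreated cells had a change of medium 12 h before extraction, which makes 9 groups of 2 samples. The labels number the 2 samples of a group and do not say that they came from separate cultures, so the tests measure the spread between these samples, which may be technical. All groups were 1 cell line. The tables list repeats and no genes, so neither fibroblast markers nor p53 targets could be looked up.

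7SK RNA is made by RNA polymerase III from a promoter that lies upstream of the transcribed part, as for U6 RNA. It is a scaffold for a ribonucleoprotein in which HEXIM1 or HEXIM2 holds the kinase P-TEFb inactive, while LARP7 and MEPCE protect the ends of the RNA. When P-TEFb is released it phosphorylates RNA polymerase II and lets paused transcription proceed, and cells exposed to transcription stress are known for releasing it. Most other 7SK copies in the genome are processed pseudogenes, inserted by the machinery of L1 elements.

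The functional RNA is shown first, because almost all counts fell on a copy of its length. It is the transcript RN7SK of GENCODE v29, 328 bases on the forward strand of chromosome 6 (GRCh38, chr6:52995621-52995948), of which the first 300 are printed, and the capitals mark the letters GATC, which occur 3 times, at positions 12, 41 and 63. GATC reads GAUC in RNA, and GAUC occurs in the 5′ hairpin that HEXIM1 binds. Which of the 3 marked sites HEXIM1 contacts was not examined. RefSeq gives the gene 332 bases, the length of the chr6 copy in the tables. The match of that copy to RN7SK rests on chromosome, name and length, since the 2 builds were not converted into each other.
RN7SK: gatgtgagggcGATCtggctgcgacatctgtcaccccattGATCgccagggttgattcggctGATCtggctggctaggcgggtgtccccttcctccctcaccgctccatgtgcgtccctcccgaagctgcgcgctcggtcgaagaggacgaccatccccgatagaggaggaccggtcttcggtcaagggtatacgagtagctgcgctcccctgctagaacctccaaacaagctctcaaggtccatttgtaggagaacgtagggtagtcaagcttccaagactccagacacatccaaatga

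The pseudogene RN7SKP203 is shown to illustrate how alike the copies can be. It lies on chromosome 2, on the reverse strand (GRCh38, chr2:76445079-76445410), and its bases 2 to 241 are printed with the 4 that differ from RN7SK in capitals.
RN7SKP203: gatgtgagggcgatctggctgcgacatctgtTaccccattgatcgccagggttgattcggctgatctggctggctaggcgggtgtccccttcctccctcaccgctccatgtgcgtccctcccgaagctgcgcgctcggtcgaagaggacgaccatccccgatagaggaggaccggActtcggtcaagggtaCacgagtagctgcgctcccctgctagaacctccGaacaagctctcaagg
GENCODE v29 lists 293 pseudogenes named RN7SKP. Their identity to RN7SK, over the aligned part, was 58.9% to 98.3% with a median of 85.4%, and 0 were identical to it. GATC occurred in 260 of them and at least 3 times in 82. Searched on the transcript strand, GATC occurred in the first 328 bases of 60.1% of the 190637 annotated transcripts at least that long, and at least 3 times in 7.26%. An alignment that ended between bases 220 and 250 of RN7SK was found for 207 of the 293. The pseudogenes were not assigned to rows of the tables, which use another build.

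The chr6 copy covered bases 1 to 331 of the 7SK consensus, if the numbers after the repeat name in a row name are positions on the consensus, which the files do not state. In the 5-FU table, 289 of the 376 other copies began within the first 10 bases of the consensus, 234 ended at bases 220 to 250, and 16 covered 300 bases or more. In the Nutlin table these were 250, 207 and 18 of 309. The median length of the other copies was 230 bases (5-FU table) and 236 bases (Nutlin table). The tables shared 293 of the 394 copies listed in either. The typical other copy thus held the 5′ part of 7SK and lacked the 3′ part.

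Nearly every 7SK count lay on the chr6 copy. It held 6775250 counts over the 14 libraries of the 5-FU table, against 4650 for the 376 other copies together. In the Nutlin table it held 2971526 counts over 5 libraries, against 1206 for the 309 others. Its share of all 7SK counts in a library was lowest in DMSO 12 h replicate 2, at 99.869% (95% Wilson interval 99.851% to 99.886%), and highest in Nutlin replicate 1, at 99.964% (99.959% to 99.968%). Of the other copies, 255 of 376 and 170 of 309 had at least 1 count in any library. Low counts were common among them, and 199 copies of the 5-FU table and 151 of the Nutlin table had 1 to 10 counts in all libraries together. How reads that match several copies were counted is not given in the sources used here, so reads from one copy may be listed at another.

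**Figure D1:**
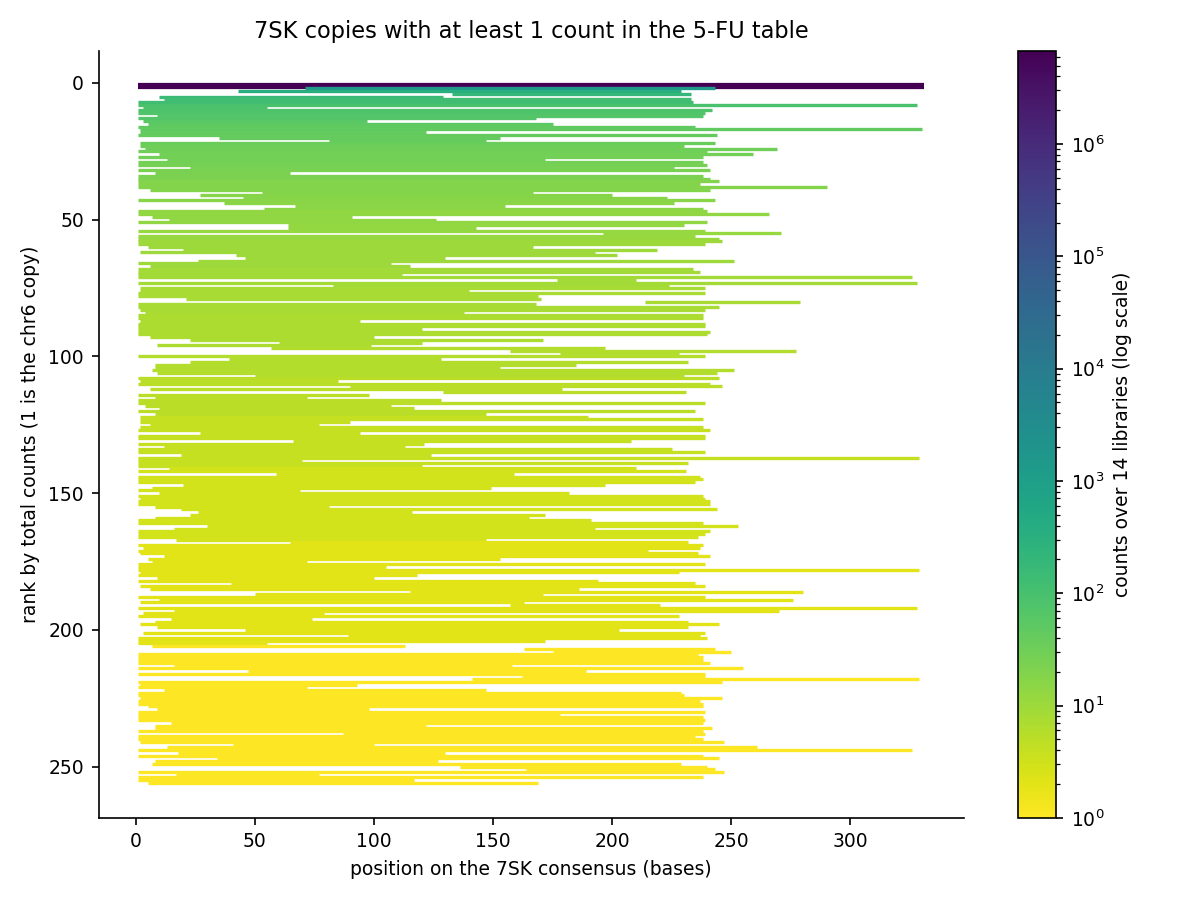
Each line is a 7SK copy with at least 1 count in the 5-FU table, drawn from its first to its last base on the 7SK consensus (x axis, bases) and ordered by its counts over 14 libraries (y axis, rank 1 is the chr6 copy), with the counts as colour on a log scale. The chr6 copy spans the whole consensus with 6775250 counts, while the copy ranked next has 1408, and most lines start at the left end and stop near base 240.

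A library held 2412334 to 6290320 counts in the 5-FU table, and the range was 9109885 to 11880265 in the Nutlin table. The chr6 copy alone took 6.406% (95% Wilson interval 6.376% to 6.436%) of a library in DMSO 12 h replicate 2 and 17.51% (17.48% to 17.55%) in 5-FU 12 h replicate 2. In the Nutlin table its share ran from 5.638% in the untreated library to 6.574% in Nutlin replicate 1. These intervals cover counting error only. The Nutlin table gives the same values in both untreated columns, which were used as 1 sample. Raw counts were not compared across the tables, which differed in the share of counts outside structural RNA (rRNA, tRNA and small RNA names): it was 19.4% to 25.6% in the Nutlin table and 54.8% to 70.0% in the other. Levels are given as CPM, the counts scaled to a common library size. Folds are on the log2 scale. Their standard error (SE) was derived from edgeR's quasi-likelihood test, as the absolute log2 fold over the square root of the F statistic. A difference is called where p, adjusted over all copies tested by Benjamini and Hochberg's method, is under 0.05.

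Under Nutlin the chr6 copy rose slightly. Its level was 56276 and 55008 CPM in the DMSO libraries, 68833 and 72027 CPM in the Nutlin libraries and 50881 CPM in the untreated one. Both Nutlin libraries lay above both DMSO libraries. The means were 70430 ± 2258 CPM (SD, n = 2) with Nutlin and 55642 ± 897 CPM with DMSO, and the log2 fold change was 0.34 (SE 0.055, edgeR adjusted p = 0.00259). Of the 21328 copies tested, 9.57% were called in either direction and 5.36% as higher. The chr6 copy's fold change stood at the 70.8th percentile of these copies. The call was lost without the filter on low counts (log2 fold change 0.34, adjusted p = 0.882). It was 0.19 with library size alone as the scaling, still called.

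With 5-FU the chr6 copy was higher than DMSO in every library at 6 h and 12 h, and the difference passed the test at 12 h. At 24 h the groups were apart or overlapped depending on the scale. At 6 h the level was 81597 and 91146 CPM with DMSO and 113680 and 122819 CPM with 5-FU. The groups did not overlap, the log2 fold change was 0.45 (SE 0.36), and edgeR's adjusted p was 0.817, so the difference was not called. At that time 0.101% of the 63602 copies tested were called.

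At 12 h the DMSO libraries held 60710 and 62228 CPM and the 5-FU libraries 178742 and 207709 CPM. These were the lowest and the highest levels of the 7SK chr6 copy in the table. The means were 61469 ± 1073 CPM and 193226 ± 20482 CPM (SD, n = 2). The log2 fold change of 1.65 (SE 0.36) was called with an edgeR adjusted p of 0.00621, where 9.71% of all copies were called and 5.44% as higher. The position of the fold change among all 63602 copies was the 88.3rd percentile. Against the DMSO libraries of 6 h and 24 h in place of those of 12 h, the log2 fold change was 1.11 (edgeR adjusted p = 0.016), with 14.7% of copies called. The estimate was thus smaller with these controls, which also differ from 5-FU 12 h in time. In this fit DMSO 12 h itself was not called different from them (log2 difference -0.54, edgeR adjusted p = 0.45). Without DMSO 12 h replicate 1 the adjusted p was 0.0628, without DMSO 12 h replicate 2 it was 0.0538 and without 5-FU 12 h replicate 2 it was 0.0682, with log2 fold changes of 1.63, 1.67 and 1.54.

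At 24 h the DMSO libraries held 102930 and 82945 CPM. The 5-FU libraries held 178613 CPM in replicate 1 and 103344 CPM in replicate 2, so replicate 2 was barely above the higher DMSO library on this scale. As a share of the library it was below it, at 10.61% against 11.15%, and so it was relative to the counts outside structural RNA. The log2 fold change was 0.60 (SE 0.36, edgeR adjusted p = 0.423), and 4.23% of all copies were called. This result turned on 1 library. Without 5-FU 24 h replicate 2 the log2 fold change was 0.94 (adjusted p = 0.00866), and without 5-FU 24 h replicate 1 it was 0.15 (adjusted p = 0.801). 5-FU 24 h replicate 2 was also the deepest library, with 6290320 counts, and 66.2% of its counts lay outside structural RNA, against 56.3% in replicate 1. The part of these features in the result was not tested.

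**Figure D2:**
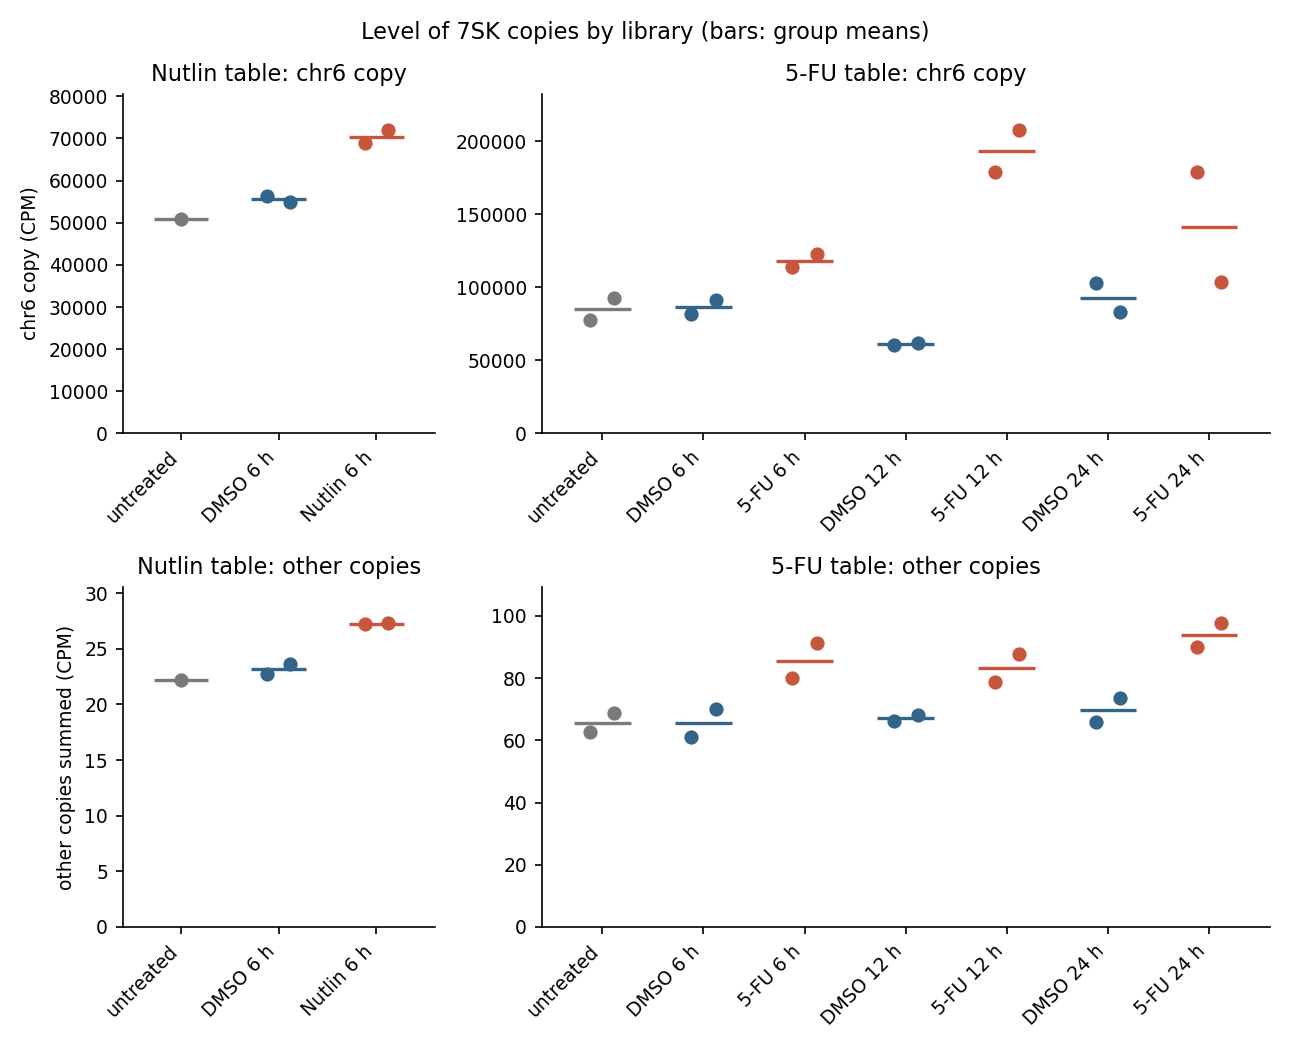
Points are libraries and bars are group means, with groups on the x axis and CPM on the y axis, for the chr6 copy (top) and the sum of the other copies (bottom) in the Nutlin table (left) and the 5-FU table (right). The chr6 copy is at 60710 and 62228 CPM in DMSO 12 h and at 178742 and 207709 CPM in 5-FU 12 h, and the 5-FU 24 h libraries stand apart from each other.

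Over the 7 groups of the 5-FU table, the order of the chr6 copy's mean level from low to high was DMSO 12 h, untreated, DMSO 6 h, DMSO 24 h, 5-FU 6 h, 5-FU 24 h and 5-FU 12 h. Untreated, DMSO 6 h and DMSO 24 h overlapped with their neighbours in this order, as did 5-FU 6 h and 5-FU 24 h. The ranges of DMSO 12 h and untreated, of DMSO 24 h and 5-FU 6 h, and of 5-FU 24 h and 5-FU 12 h did not overlap (178613 CPM at the top of the former and 178742 CPM at the bottom of the latter in the last pair). The untreated libraries held 77559 and 92640 CPM. The mean of the DMSO groups against untreated gave a log2 fold change of -0.11 (SE 0.29, edgeR adjusted p = 0.903), with 1.66% of copies called.

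The DMSO 12 h libraries were low in 7SK beside the other controls. The log2 difference of DMSO 12 h from DMSO 6 h and 24 h was -0.54 (SE 0.31, edgeR adjusted p = 0.45) in the fit over single copies, with 1.78% of copies called. In the fit over repeat names, where counts are summed by name and scaled over all copies, the same difference was -0.79 (SE 0.19, adjusted p = 0.00562), and 37.0% of 1079 names were called as lower. That call and that share depended on the scaling. With RLE size factors the difference was -0.51 (adjusted p = 0.171), with 56 names lower and 64 higher in place of 399 and 17. It was not called with DESeq2 (-0.51, adjusted p = 0.0761) or with TMM from filtered copies (-0.54, adjusted p = 0.059), and it was called with library size alone (-0.48, adjusted p = 0.0454), where 34 names were lower and 54 higher. The 5-FU effect at 12 h minus that at 6 h was 1.20 (SE 0.50, adjusted p = 0.314) over single copies, with 0.651% of copies called, and 1.32 (SE 0.29, adjusted p = 0.013) over names, with 9.08% of names called as higher. That the 5-FU effect on the chr6 copy differs between 6 h and 12 h was thus called by one fit and not by the other. Over names the call was lost with RLE size factors (1.16, adjusted p = 0.0805) and against the DMSO libraries of 6 h and 24 h (0.52, adjusted p = 0.154). The 24 h effect minus the 6 h effect was 0.15 (SE 0.50, adjusted p = 0.979), with 0.385% of copies called.

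**Figure D3:**
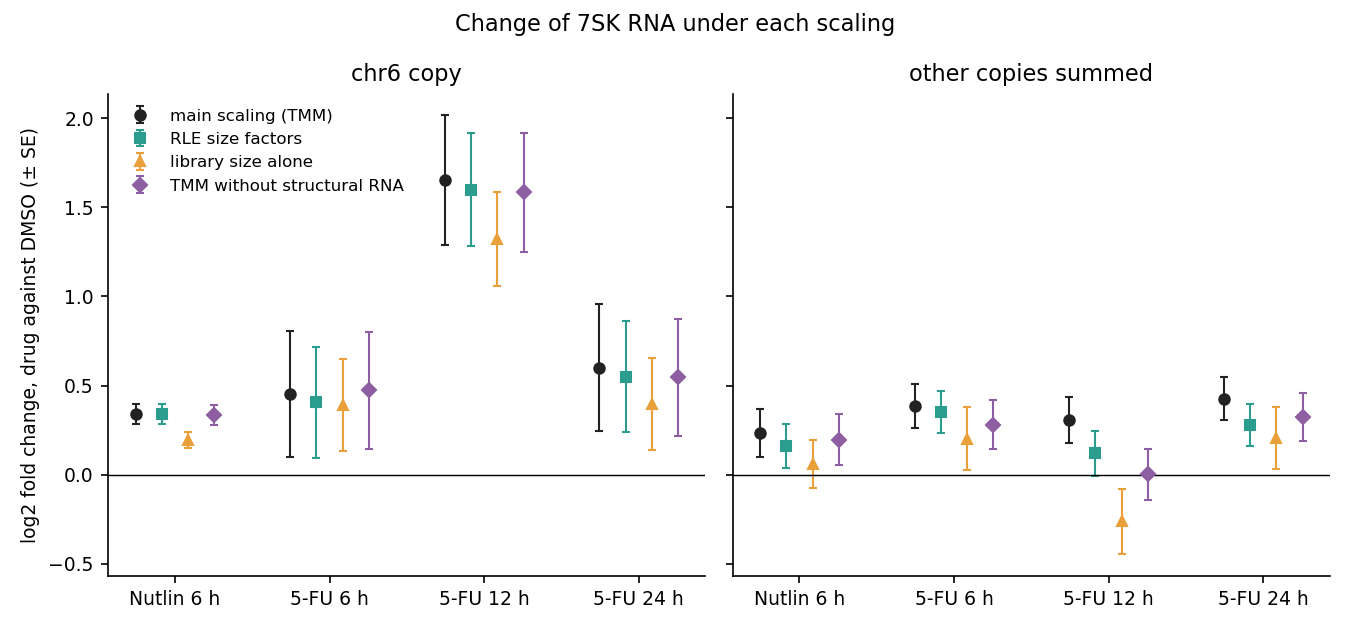
Log2 fold change of drug against DMSO with its SE (y axis) for the 4 drug comparisons (x axis), for the chr6 copy in the fit over single copies (left) and for the other copies summed (right), with 1 marker per scaling. The chr6 copy stays above 0 under all 4 scalings shown, and the other copies at 12 h run from 0.31 to -0.26.

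Ratios of counts within a library need no scaling factor and were compared next. The chr6 copy was set against 7SL, the RNA of the signal recognition particle that polymerase III makes from an internal promoter. The count ratio of 7SK to 7SLRNA lay between 1.67 and 2.39 in 12 libraries of the 5-FU table. In the DMSO 12 h libraries it was 0.642 and 0.511. The DMSO 12 h controls were therefore high in 7SL as well as low in 7SK, with 80212 and 101685 CPM of 7SLRNA against 33972 to 52878 CPM in the other control libraries. At 12 h the mean log2 ratio was higher with 5-FU by 1.77. At 24 h it was 1.04 ± 0.007 with 5-FU and 1.24 ± 0.0197 with DMSO (SD, n = 2), lower by 0.199 on the log2 scale, and the 5-FU replicates that differed in 7SK level had ratios of 2.05 and 2.07. At 6 h the groups overlapped. Over the 3 times the mean difference was 0.55 (exact permutation test, two-sided, drug labels permuted within each time, p = 0.231, adjusted p = 0.231 over 4 ratios), and without the 12 h libraries it was -0.056.

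Against U6, the spliceosomal RNA that shares the upstream promoter type, the 7SK ratio rose with 5-FU. It was 335 and 376 with DMSO and 465 and 494 with 5-FU at 6 h, 328 and 308 against 688 and 737 at 12 h, and 422 and 371 against 486 and 406 at 24 h. The 24 h groups overlapped and the others did not. With ratios of 308 or more, all U6 copies together held few counts beside the chr6 copy. How fully these libraries capture U6 RNA was not tested. The mean log2 difference was 0.59 (exact permutation p = 0.0185, adjusted p = 0.037). Against all counts outside structural RNA it was 0.86 (exact permutation p = 0.0185, adjusted p = 0.037), with no overlap at 6 h and 12 h and overlap at 24 h. The smallest p these arrangements allow is 0.00926. Without the 12 h libraries both differences were smaller, 0.30 and 0.50, each with an exact permutation p of 0.111. The share of the chr6 copy in all 7SK counts differed by 0.0343 percentage points (exact permutation p = 0.0741, adjusted p = 0.0988). With Nutlin the log2 ratio was higher by 0.18 to 7SL, by 0.25 to U6 and by 0.31 to counts outside structural RNA, with no overlap, and 2 libraries against 2 allow no p below 0.333.

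**Figure D4:**
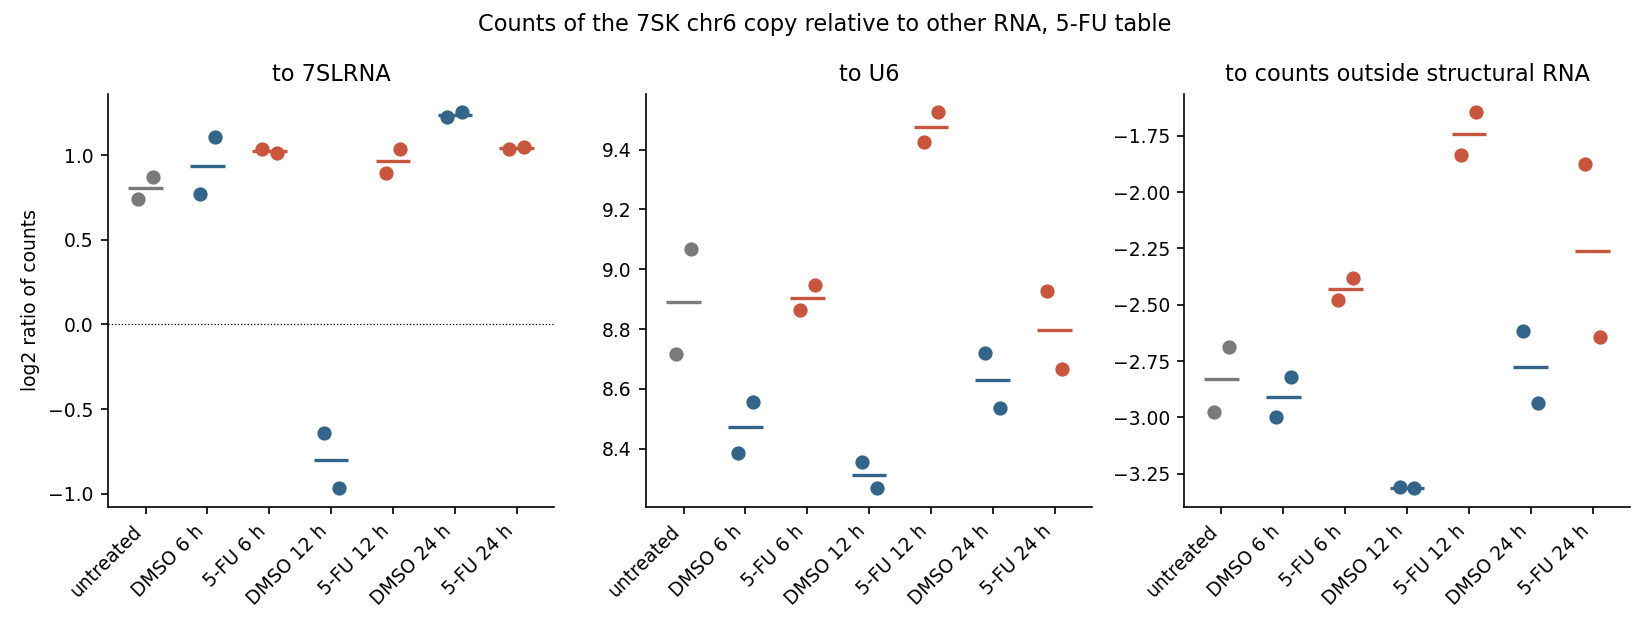
Log2 ratio of the counts of the chr6 copy to 7SLRNA (left), to U6 (middle) and to all counts outside structural RNA (right) in each library of the 5-FU table (points, with bars for group means). The 7SLRNA ratio is below 0 only in the 2 DMSO 12 h libraries, and the U6 ratio is highest in 5-FU 12 h.

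The other copies, summed, held far fewer counts than the chr6 copy. Their summed level, on the scale of the fit over names, was 61.2 and 70.0 CPM in DMSO 6 h and 80.0 and 91.1 CPM in 5-FU 6 h. At 12 h it was 66.3 and 68.0 CPM with DMSO and 78.7 and 87.7 CPM with 5-FU. At 24 h it was 66.0 and 73.6 CPM with DMSO and 90.0 and 97.6 CPM with 5-FU. The 5-FU libraries lay above the DMSO libraries at each time on this scale, and the untreated libraries, at 62.6 and 68.8 CPM, lay among the DMSO libraries. The log2 fold changes were 0.38 (SE 0.12, edgeR adjusted p = 0.262) at 6 h, 0.31 (SE 0.13, adjusted p = 0.0833) at 12 h, with library size alone giving -0.26, and 0.43 (SE 0.12, adjusted p = 0.0369) at 24 h. Of the 1079 names edgeR called 0 at 6 h, where 127 had an unadjusted p below 0.05, 33.7% at 12 h and 12.1% at 24 h. The call at 24 h was lost under 10 of 14 alternatives. Among them were RLE size factors (0.28, adjusted p = 0.189) and the sum without the most abundant other copy (0.33, adjusted p = 0.209). It was also lost without DMSO 24 h replicate 1 (adjusted p = 0.243), DMSO 24 h replicate 2 (0.0956) or 5-FU 24 h replicate 2 (0.0769), and of the single libraries of that time only the omission of 5-FU 24 h replicate 1 left it (0.0163).

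In the Nutlin table the other copies held 22.8 and 23.6 CPM with DMSO, 27.2 and 27.3 CPM with Nutlin and 22.2 CPM in the untreated library. The groups did not overlap, and the log2 fold change of 0.23 (SE 0.14, edgeR adjusted p = 0.289) was not called, where 12.6% of 1029 names were. The DMSO 12 h libraries, low in the chr6 copy, were not low in the other copies, whose difference from DMSO 6 h and 24 h was -0.01 (SE 0.11, adjusted p = 0.942), and 0.27 with RLE size factors. In the 5-FU table, counts of the other copies per 10000 counts of the chr6 copy ran from 4.28 in 5-FU 12 h replicate 2 to 13.1 in DMSO 12 h replicate 2. Relative to the counts outside structural RNA, set to 1000000, they ran from 94.3 to 147. On that scale the 12 h groups overlapped, at 130 and 132 with DMSO and 123 and 137 with 5-FU. The 5-FU libraries lay above the DMSO libraries at 6 h and 24 h. The other copies thus did not keep a fixed proportion to the chr6 copy.

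Of the other copies, 11 of 376 (5-FU table) and 2 of 309 (Nutlin table) passed the filter on low counts and could be tested singly. A copy on chromosome 13 (77575983 to 77576152, consensus bases 71 to 243) held 30.3% (5-FU table) and 33.1% (Nutlin table) of all counts of the other copies. Per kilobase, the chr6 copy's mean level was 2403 times that of the chromosome 13 copy in the 5-FU table. The chromosome 13 copy held 16.2 and 22.3 CPM in DMSO 6 h and 22.3 and 30.0 CPM in 5-FU 6 h, in the scale of single copies. It held 24.8 and 26.8 CPM in DMSO 12 h and 31.7 and 34.6 CPM in 5-FU 12 h. In DMSO 24 h it held 13.1 and 20.3 CPM and in 5-FU 24 h 34.1 and 18.6 CPM. Its log2 fold changes were 0.44 (SE 0.29), 0.36 (SE 0.30) and 0.64 (SE 0.29) at 6, 12 and 24 h, none called by edgeR (adjusted p = 0.778, 0.471 and 0.263). It was called higher at 24 h without 5-FU 24 h replicate 2 (1.02, adjusted p = 0.038), and at 12 h against DMSO 6 h and 24 h (0.88, adjusted p = 0.0208).

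A copy on chromosome 10 (112781295 to 112781424, consensus bases 10 to 129) was called higher at 24 h. It had 3 and 7 counts in the DMSO 24 h libraries and 9 and 48 in the 5-FU 24 h libraries. The log2 fold change was 2.42 (SE 0.67, edgeR adjusted p = 0.0426), the only call among the 11 copies at that time, where 2.42% of all copies were called as higher. The call was lost without DMSO 24 h replicate 1 or replicate 2, and without 5-FU 24 h replicate 2, the library with 48 counts. It was also lost without the filter on low counts, with only the libraries compared, and with library size alone. In that last setting a copy on chromosome 3 (160130518 to 160130571, consensus bases 3 to 55), named here after its values were seen, was called lower at 24 h (-2.96, adjusted p = 0.0419). It had 17 and 14 counts in DMSO 24 h and 2 and 2 in 5-FU 24 h, and with TMM scaling its log2 fold change was -2.80 (adjusted p = 0.0584). The chromosome 10 copy had 1 and 4 counts with DMSO and 15 and 15 with 5-FU at 12 h (log2 fold change 2.18, adjusted p = 0.0838). At 6 h it had 4 and 9 against 15 and 20 (1.41, adjusted p = 0.671). For the chromosome 10 copy each 5-FU library was thus above both DMSO libraries of its time in CPM. In the Nutlin table the chromosome 10 copy had 2 and 5 counts with DMSO and 10 and 11 with Nutlin, too few to be tested.

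A copy on chromosome 14 (90178855 to 90179094, consensus bases 1 to 239) was called lower with 5-FU at 12 h. It had 22 and 28 counts in the DMSO 12 h libraries and 4 and 1 in the 5-FU 12 h libraries. The log2 fold change was -3.64 (SE 0.91, edgeR adjusted p = 0.015), where 4.27% of all copies were called as lower. In the other 12 libraries of the table it had 0 to 5 counts, so it passed the filter on low counts only through the DMSO 12 h libraries. The call rested on these libraries. They were also called higher than DMSO 6 h and 24 h for this copy (edgeR adjusted p = 0.000324), as were 1.13% of all copies. Both calls compare the group through which the copy was kept, so the second adds no separate support. The chromosome 14 copy had 0 counts in both DMSO 24 h libraries, which allows up to 0.562 and 0.516 CPM (3 counts on the scale of single copies). Without either DMSO 12 h library, or without 5-FU 12 h replicate 2, no other copy was called at 12 h. Against DMSO 6 h and 24 h it was not called at 12 h, and the copies on chromosomes 10 and 13 were called higher instead.

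The remaining copies among the 5 most abundant of a table were not called in a drug comparison. They lie on chromosome 7 (134625348 to 134625525, consensus bases 43 to 229), chromosome 1 (165694567 to 165694668, bases 133 to 233), chromosome 2 (27877763 to 27877994, bases 12 to 233) and chromosome 8 (62544342 to 62544571, bases 1 to 234). The chromosome 7 copy had 336 counts in the 5-FU table and the chromosome 1 copy 189. No annotation of hg19 was used here, so these copies were not placed in genes, exons or introns.

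Other products of RNA polymerase III were read from the fit over names. At 12 h, U6 (log2 fold change 0.73, SE 0.15, edgeR adjusted p = 0.00186) and the Y RNA name HY4 (0.83, SE 0.22, adjusted p = 0.00917) rose among the 5 names with upstream promoters, and 3 were not called, where 28.5% of all names were called as higher. At 24 h 4 of 5 rose, against 10.9% of all names, with HY1 at 1.30 and HY3 at 1.25, and HY5 was not called. Under each of 5 other scalings, DESeq2 included, 2 of the 5 were called at 24 h. Of the 3 names with internal promoters, BC200, a neuronal RNA related to Alu, rose at 12 h (3.64, SE 0.17) and at 24 h (2.68, SE 0.16), and 7SLRNA rose at 24 h (0.86, SE 0.21), a call lost with RLE size factors (0.74, adjusted p = 0.11). BC200 was called at both times under all of these scalings, at 3.07 or more at 12 h and 2.42 or more at 24 h. At 12 h 7SLRNA was at 0.11 (SE 0.21, adjusted p = 0.718), and at -0.45 with library size alone (adjusted p = 0.0238). Of 56 tRNA names, 31 rose at 12 h and 13 at 24 h, and 0 fell. The balance of calls at 12 h depended on the scaling. Over all names it was 307 higher and 57 lower, against 184 and 200 with RLE size factors and 61 and 436 with library size alone, and the median of all names moved from 0.17 to -0.02 and -0.40. Among tRNA names at 12 h, RLE size factors gave 26 calls, all higher, and library size alone gave 24 that rose and 2 that fell. RLE size factors left U6 as the only upstream name called at 12 h, higher, and library size alone left HY3 as the only one, lower. At 6 h 0 names of these lists were called by edgeR, with BC200 at 0.66 (SE 0.15, adjusted p = 0.108). Medians over the upstream list were 0.42 at 12 h and 0.66 at 24 h, beside 0.17 and 0.13 over all names. In the same fit the chr6 copy's change stood at the 97.1st, 97.9th and 91.5th percentile of the 1079 names at 6, 12 and 24 h. In the fit over single copies it stood lower, at the 75.7th, 88.3rd and 75.1st percentile of 63602 copies.

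U RNAs made by RNA polymerase II moved at the same times. Of 10 such names, 6 rose at 12 h and 7 at 24 h, 0 fell, and 0 were called at 6 h, where the share of all names called as higher was 28.5% at 12 h and 10.9% at 24 h. RLE size factors gave 5 rises at 12 h and 4 at 24 h, and library size alone gave 2 rises and 1 fall at 12 h. U1, which takes part in 5′ splice site choice, was at 1.28 (SE 0.24, adjusted p = 0.00106) at 12 h and at 0.56 (SE 0.24, adjusted p = 0.151) at 24 h. With Nutlin, the 7SK chr6 copy (0.37, SE 0.063 in the fit over names), 7SLRNA (0.19, SE 0.057, adjusted p = 0.0209) and U1 (0.26, SE 0.069, adjusted p = 0.00721) rose, as did 9.52% of all names. None of the 4 tested names with upstream promoters was called with Nutlin. The call of 7SLRNA was lost with library size alone (0.015), and so was that of U1 (0.089). Of 46 tRNA names, 1 rose and 4 fell, where 3.11% of all names were called as lower. With library size alone 0 rose and 8 fell, and the number of all names called as lower went from 32 to 188.

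**Figure D5:**
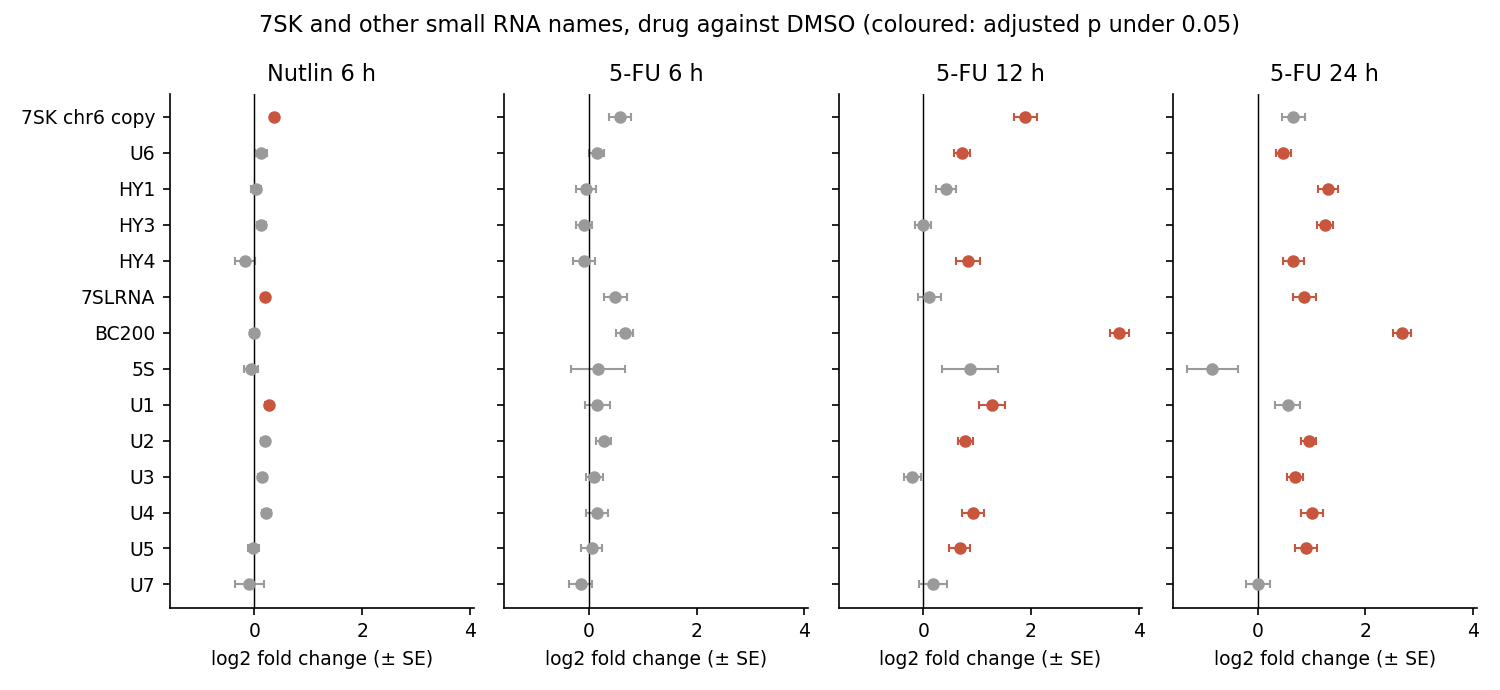
Log2 fold change with its SE (x axis) in the fit over repeat names for the 7SK chr6 copy and other small RNA names (y axis) in the 4 drug comparisons, coloured where the adjusted p is under 0.05. The names drawn are a selection without tRNA names, HY5 and some U RNAs. No name is coloured at 6 h of 5-FU. Among the names drawn, BC200 and the 7SK chr6 copy are farthest right at 12 h, at 3.64 and 1.89. Over all 1079 names the chr6 copy stood at the 97.9th percentile at 12 h, and the median of the 56 tRNA names, not drawn, was 1.36.

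Few counts lay on the repeats around the chr6 copy. Within 10000 bases on either side, 26 other repeat copies had a count in the 5-FU table, 2617 counts in all, and 20 had 738 counts in the Nutlin table. The nearest of them in the 5-FU table lay 96 bases away. Of the copies that passed the filter (4 and 3), 0 were called by edgeR in any comparison (1 test had an unadjusted p below 0.05 in the former table and 0 in the latter). The share of all copies called was 9.71% at 12 h of 5-FU and 9.57% with Nutlin, so 0 calls among so few copies say little. The most abundant, an AluY copy 7507 bases downstream with 1347 counts, had a log2 fold change of 0.61 (SE 0.27, edgeR adjusted p = 0.159) at 12 h of 5-FU. The others tested at that time were at 0.74 (MADE2), 0.55 (MER135) and -0.75 (MER41A).

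The repeat names whose log2 CPM was most like that of the chr6 copy over the 14 libraries of the 5-FU table were LTR16A1 (Pearson r = 0.956), LTR77 (0.95), MER74B (0.95), MER106A (0.948) and MER63B (0.946). The most similar single copy was a MER3 copy on chromosome 16 (90025641 to 90025701), with r = 0.987. These are the highest of 1079 names and 63602 copies, the libraries come in groups of 2, and a shared scaling factor enters every value. No likeness is given for the Nutlin table, which has 5 libraries.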

How the data were processed

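Total RNA of 18 samples in 9 groups was sequenced. The authors deposited 2 tables of whole-number counts, with a row for each repeat copy. The submitters' processing notes name Trimmomatic 0.32, cutadapt 1.10, Bowtie2, edgeR, DESeq2 and the build hg19. The repeat annotation and the handling of reads that match several copies are not given in the sources used here. The 7SK copies and the lists of other RNA names were chosen with earlier results of these data known. Single copies were fitted per table with edgeR 4.0.16 (R 4.3.3, limma 3.58.1) after filterByExpr (at least 10 counts) with TMM scaling from the copies kept, leaving 63602 (5-FU table) and 21328 (Nutlin table) copies. Sums by repeat name, with 7SK split into the chr6 copy and the rest, used TMM from all copies (1079 and 1029 names), so CPM of the 2 fits are on different scales. p-values were adjusted over each whole table. Named copies are the chr6 copy, the 5 other copies of highest mean CPM per table and every other copy called in a drug comparison. Names most like the chr6 copy were taken by Pearson r. Ratios were tested in Python 3.11.15 by exact permutation within time points. Procedures were tested on simulated data. Depth was 2412334 to 11880265 counts a library. Alternatives were other scalings and filters, DESeq2 1.42.0, fits on fewer libraries, a replicate block and other controls. RN7SK sequences come from GENCODE v29 (GRCh38), and alignments used Biopython 1.88. The chromosome 6 promoter was not used here.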

Additional observations from a re-analysis of the deposited data

Results flagged for a closer look

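The log2 ratio of the chr6 copy of 7SK to 7SLRNA was set apart because both 5-FU libraries lay above both DMSO libraries at 12 h and below both at 24 h. The effect of 5-FU was 1.77 at 12 h and -0.199 at 24 h, and the effect at 24 h minus that at 12 h was -1.97. A two-sided exact permutation of the labels within both times, over 36 arrangements, gave p = 0.0556, the smallest p this design allows and above 0.05. The ratio was set apart for full separation in opposite directions, which fixes this p in advance, so the permutation cannot decide whether the effects differ. In the DMSO 12 h libraries 7SLRNA was at 80212 and 101685 CPM and the chr6 copy of 7SK was at its lowest. Their part in the result was not tested apart from the comparison with other controls.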

How the results depend on the processing

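Of 312 alternative values of a fold change, ratio or share, 262 kept their direction and their side of the threshold and 22 changed direction. Of 120 alternative numbers of other copies called, 107 were the same number or within 1.5 times of it, which does not mean the same copies or direction. Leaving out 1 library at a time gave log2 fold changes of the chr6 copy of 0.31 to 0.37 with Nutlin, 1.54 to 1.76 with 5-FU at 12 h and 0.15 to 0.94 at 24 h, -0.30 to 0.49 for the 24 h effect minus the 6 h effect, and -0.23 to 0.027 for DMSO against untreated. For the other copies summed it gave 0.35 to 0.51 at 24 h, -0.057 to 0.14 for 24 h minus 6 h, -0.18 to 0.023 for 12 h minus 6 h, -0.027 to 0.11 for DMSO against untreated, and -0.057 to 0.039 for DMSO 12 h against DMSO 6 h and 24 h. The number of other copies called was 0 to 1 at 12 h and 0 to 1 at 24 h, and the share of the chr6 copy in 7SK counts differed by 0.027 to 0.0417 points.

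Without the filter on low counts the chr6 copy was at 0.34 with Nutlin, no longer called, and at 0.45 (6 h), 0.60 (24 h), 1.20 (12 h minus 6 h) and -0.54 (DMSO 12 h), all called, and 0 other copies were called at 24 h. Its effect at 12 h minus 6 h was also called with DESeq2 (1.19), with only the libraries compared (1.20) and over names (1.32), and DMSO 12 h over names (-0.79). The cause was not tested. The other copies summed at 24 h were not called with RLE size factors (0.28), library size alone (0.21), scaling without structural RNA (0.32), DESeq2 (0.28), TMM from filtered copies (0.36), only the libraries compared (0.43), or without the most abundant other copy (0.33). At 12 h they were called against DMSO 6 h and 24 h (0.30) and with only the libraries compared (0.31), and were at -0.26 with library size alone. For DMSO 12 h they changed sign with RLE size factors (0.27), library size alone (0.30), scaling without structural RNA (0.24), DESeq2 (0.27) and TMM from filtered copies (0.24), and for 24 h minus 6 h with RLE size factors (-0.072) and DESeq2 (-0.073). With at least 10 counts in every library 0 other copies were called at 12 h, at 24 h and for DMSO 12 h, as none of those called passed. The copy called at 12 h was lower. At 12 h against DMSO 6 h and 24 h, 2 were called (both higher), where 14.7% of all copies were called in either direction. Other counts were 2 at 12 h with TMM from all copies (1 higher, 1 lower), 1 at 24 h with library size alone (lower, in place of 1 higher), 0 at 24 h with only the libraries compared and 0 for DMSO 12 h with DESeq2. Without the 12 h libraries the ratios of 7SK to 7SL, to U6 and to counts outside structural RNA differed by -0.056, 0.30 and 0.50.

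Correlations of same-numbered deviations ran from -0.105 to 0.139, the highest between 5-FU 24 h and DMSO 24 h, and gave no clear sign of pairing. They cover all copies kept by the filter, where noise in low counts draws them towards 0, so they cannot exclude that the replicate numbers pair samples. A fit with the replicate block changed no call, with the chr6 copy at 1.65 at 12 h (adjusted p = 0.0109) and 0.34 with Nutlin (adjusted p = 0.0215). TMM from all or filtered copies, the fit over names and the other scalings of the name lists were added after seeing the data. With 2 libraries a group, a single library can decide a call, and copies with few counts could not be tested.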
